A study of Mus musculus with 9 samples.

Results

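A set of 10 genes was followed in RNA sequencing of 4T1 cells. They encode surface and secreted proteins that a tumour cell shows to T cells, natural killer (NK) cells and macrophages. The genes are Pvr, Nectin2, Lgals9, Cd274, Cd276, Cd47, H60b, Raet1e, Ulbp1 and Nt5e. Nt5e encodes an enzyme and not a ligand, and is counted below with the ligand genes. The 10 genes were taken from the 55416 genes of the deposited count tables by matching Ensembl gene IDs to these symbols. All 10 were matched, and all 10 passed the filter on low counts that left 13439 genes for testing.

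4T1 is a mouse mammary carcinoma line of the BALB/c strain. The PBS group was cells in fresh DMEM medium, which the labels also call untreated, and the MRC group was cells given MRC nanoparticles in that medium for 12 h. The MRC+L group received the same nanoparticles and a 660 nm laser for 3 min, at an irradiance whose figure of 180 carries the unit mW per square centimetre in one label and mV in another. Each group had 3 libraries, and the composition of MRC is not spelled out in the labels. There was no group with light alone, so an effect of light without nanoparticles was not measured. The title of the series names pyroptosis and tumour immunotherapy, and the stated design is a search for genes that differ among the 3 groups. Nothing in the labels says that the replicates were separate cultures, so p-values measure the spread between these libraries only.

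Checkpoint ligands dampen an immune attack by binding inhibitory receptors on T cells and NK cells, as PD-L1 does at PD-1. NK cells also read activating ligands that stressed or transformed cells display, such as the NKG2D ligands of the RAE-1, H60 and MULT1 families, and the balance of the signals sets whether the NK cell kills. Several ligands have more than 1 receptor, so the poliovirus receptor and nectin-2 activate through DNAM-1 and inhibit through TIGIT.

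Library totals were 15019765 to 20044166 counts, with 18999 to 20514 genes detected per library. Levels are given as CPM, the count relative to the total count of the library, with that total scaled by TMM factors. A library with 0 counts of a gene leaves room for 3 counts, which is 0.150 to 0.200 CPM, for counting error only. The PBS libraries spread more than the others, with a biological coefficient of variation of 0.280 against 0.0807 for MRC and 0.0580 for MRC+L. PBS replicate 2 stood apart in a measure of gene length. For each gene, log2 CPM was taken as the deviation from that gene's mean over all 9 libraries. The mean deviation of the shortest genes minus that of the longest genes was 0.92 in PBS replicate 2. In the other 8 libraries it lay between -0.249 and 0.084. Of 8 epithelial markers, Epcam had 0 to 5 counts per library and Cldn7 0 to 6, so these defining markers were near absent. The keratin genes Krt8 and Krt18 carried the list, whose summed level was 992 to 1774 CPM in PBS, 592 to 625 in MRC and 527 to 547 in MRC+L. The list did not move as one: of its 6 tested members, 2 were higher and 2 lower in MRC than in PBS, and 2 higher and 3 lower in MRC+L. Cldn3 was among those that rose, from a mean of 26.4 CPM to 45.9 in MRC and 44.0 in MRC+L. Of 16 genes for leukocytes and the receptors of these ligands, 9 to 12 were at 0 in each library. Cd3e, Ncr1, Klrb1c and Adgre1 were at 0 in all 9, and Ptprc had 0 to 3 counts. Csf1r, which was not tested, had 0 to 2 counts in PBS, 4 to 8 in MRC and 7 to 16 in MRC+L. The summed level of that list was 41.5 to 51.5 CPM, nearly all of it from Tigit and Havcr2. A list of 6 fibroblast and endothelial genes summed to 34.1 to 64.5 CPM in PBS, 76.0 to 91.0 in MRC and 72.4 to 82.0 in MRC+L. Pdgfra made up most of that sum, with means of 44.2, 77.2 and 71.9 CPM. Dcn had 0 or 1 counts per library, Col1a1 and Col1a2 had 4 to 31, and Cdh5, at means of 5.16, 4.27 and 3.56 CPM, was not called. Pecam1 had 2 to 4 counts in PBS, 6 to 15 in MRC and 9 to 13 in MRC+L, and was called higher in both. Of the 4 tested genes of that list, 2 were higher and 0 lower in each comparison with PBS. The share of all genes called was 37.6% in MRC and 46.2% in MRC+L. The part of any of these differences in the ligand results was not tested.

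Against PBS, 8 of the 10 ligand genes were called changed in MRC, 3 higher and 5 lower, where called means a Benjamini-Hochberg adjusted p under 0.05 in the edgeR quasi-likelihood test over all genes. Of all genes tested, 37.6% were called in that comparison, 17.8% higher and 19.8% lower. Pvr, H60b and Nt5e rose, and Lgals9, Raet1e, Cd47, Cd276 and Nectin2 fell. In MRC+L against PBS 8 of 10 were called, 2 higher and 6 lower, against 46.2% of all genes, 21.8% higher and 24.5% lower. Pvr and H60b rose there, and Lgals9, Raet1e, Nectin2, Cd47, Cd276 and Cd274 fell. The median log2 fold change of the 10 genes was -0.54 in MRC and -0.75 in MRC+L, and that of all genes was -0.026 and -0.033. These comparisons share the PBS libraries, so they are not separate evidence. The 10 genes were chosen with earlier results of these data known. Their counts and medians, set beside all genes here and below, are thus no test of the set. RNA from a whole culture cannot tell fewer cells of a kind from less RNA per cell.

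Counted by libraries alone, the MRC and PBS groups did not overlap for 9 of the 10 genes, 3 higher and 6 lower, against 48.3% of all genes (24.1% higher, 24.2% lower). The MRC+L and PBS groups likewise did not overlap for 9, 3 higher and 6 lower, against 56.3% of all genes (28.2% higher, 28.1% lower). Ulbp1 was the gene whose groups overlapped in both.

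**Figure D1:**
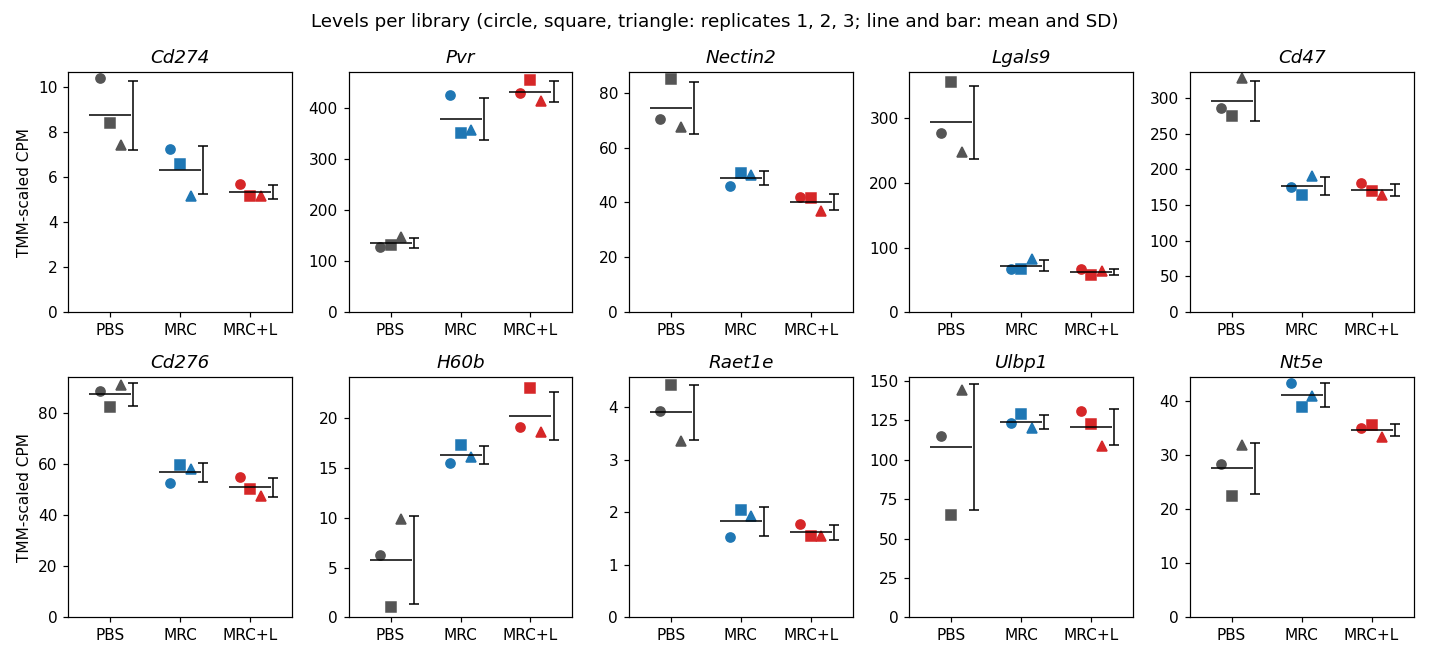
Level of each ligand gene in TMM-scaled CPM (vertical axes, linear from 0) in the 3 libraries of PBS, MRC and MRC+L; symbols are replicates, and lines and bars are means and SD. Pvr went from 128 to 147 CPM in PBS to 351 CPM or more in the other groups, while Lgals9 went from 248 CPM or more to below 82 CPM.

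Pvr encodes the poliovirus receptor CD155, a nectin-like adhesion protein that binds DNAM-1, TIGIT and CD96 on lymphocytes. The gene lies on the minus strand at chr7:19637503-19655085 of GRCm39. Its level was 128, 131 and 147 CPM in the PBS libraries, 425, 351 and 356 CPM in MRC, and 428, 454 and 413 CPM in MRC+L. Every library with nanoparticles was above every PBS library, and the 2 groups with nanoparticles overlapped. Means were 135 ± 10.1, 377 ± 41.3 and 431 ± 20.7 CPM (SD, n = 3). The rise was 2.79-fold in MRC (log2 1.48 ± 0.115 SE, adjusted p = 1.23e-05) and 3.19-fold in MRC+L (log2 1.67 ± 0.116, adjusted p = 4.31e-06).

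Nectin2 encodes CD112, the related ligand of DNAM-1, TIGIT and, in man, PVRIG. It sits 153.1 kb from Pvr on the same strand, at chr7:19450569-19484408. Its level moved the other way, with 70.6, 85.2 and 67.6 CPM in PBS, 46.1, 50.8 and 50.2 CPM in MRC, and 42.0, 41.5 and 36.7 CPM in MRC+L. The 3 groups did not overlap, with PBS highest and MRC+L lowest. Nectin2 fell 1.52-fold in MRC (log2 -0.60 ± 0.117, adjusted p = 0.00276) and 1.86-fold in MRC+L (log2 -0.89 ± 0.117, adjusted p = 0.000217). Of the 13 annotated genes between Pvr and Nectin2, 6 were tested: 1 was higher and 2 were lower in MRC than in PBS, and 0 were higher and 1 was lower in MRC+L. Exons of Nectin2 share 135 bases (3.86% of its exon length) with the opposite-strand gene Gm20512, which had 0 to 3 counts per library.

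Promoter windows of RefSeq on GRCm38.p6, 300 bases each, were at hand for 8 of the 10 genes, with none for Pvr and H60b. They were searched on both strands for the core of the interferon response element (GAAA, any 2 bases, GAAA), a STAT site (TTCNNNGAA), the core of the antioxidant response element (TGACNNNGC), a CHOP-ATF4 element (TGATGNAA) and the cAMP response element (TGACGTCA). These letters are in 3.44%, 8.30%, 12.4%, 3.97% and 1.79% of the 32851 windows. Lgals9 held the interferon letters at 2 places, with first bases at -55 and, after the start, at 16. Nectin2 held the antioxidant letters before the start and the cAMP letters after it. Windows of the other 6 genes held none of the 5 motifs. The 250 bases before the start of these 2 genes are shown because they are the windows with a match, 5′ to 3′ on the strand of the gene, at chr11:78984925-78985174 (minus) for Lgals9 and chr7:19749574-19749823 (minus) for Nectin2. Capitals mark the matches, both of which read as the motif on the reverse strand. A match describes the letters and not a bound site.
Lgals9: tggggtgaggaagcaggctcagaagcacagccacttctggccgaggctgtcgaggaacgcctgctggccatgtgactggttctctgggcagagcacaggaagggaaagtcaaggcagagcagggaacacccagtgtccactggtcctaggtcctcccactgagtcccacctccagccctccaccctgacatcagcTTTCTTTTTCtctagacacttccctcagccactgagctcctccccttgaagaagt
Nectin2: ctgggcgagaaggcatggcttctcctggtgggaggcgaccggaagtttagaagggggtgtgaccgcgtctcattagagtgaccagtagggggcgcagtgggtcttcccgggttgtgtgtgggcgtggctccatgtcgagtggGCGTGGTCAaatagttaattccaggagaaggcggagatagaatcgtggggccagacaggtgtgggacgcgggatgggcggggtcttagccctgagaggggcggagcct

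Lgals9 encodes galectin-9, a secreted lectin that binds TIM-3 and other glycoproteins of T cells and is induced by interferon. It lies on the minus strand at chr11:78853800-78875772 of GRCm39. In PBS it stood at 277, 357 and 248 CPM, in MRC at 67.0, 67.1 and 81.6 CPM, and in MRC+L at 66.6, 57.4 and 63.6 CPM. The lowest PBS library was above the highest library with nanoparticles, and all 3 MRC+L libraries were below all 3 of MRC. Group means were 294 ± 56.5, 71.9 ± 8.38 and 62.5 ± 4.71 CPM. Its fall was 4.08-fold in MRC (log2 -2.03 ± 0.154, adjusted p = 1.05e-05) and 4.70-fold in MRC+L (log2 -2.23 ± 0.155, adjusted p = 4.35e-06), the largest fold among the 10 genes in both comparisons. Without PBS replicate 2, its highest library, the changes were -1.87 and -2.07.

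Cd274 encodes PD-L1, the ligand of PD-1. The gene lies on the plus strand at chr19:29344855-29365495. It was scarce, with 199, 143 and 119 counts in PBS, 114, 113 and 104 in MRC, and 105, 77 and 87 in MRC+L. As levels these are 10.4, 8.41 and 7.41 CPM, then 7.22, 6.58 and 5.16 CPM, then 5.67, 5.15 and 5.15 CPM. PBS was above both other groups without overlap, although the lowest PBS library and the highest MRC library lay close. Cd274 fell 1.64-fold in MRC+L (log2 -0.71 ± 0.188, adjusted p = 0.0113). For MRC the log2 change of -0.47 ± 0.186 missed the threshold (adjusted p = 0.0693), as it did in 13 of 16 other settings, down to -0.33 (adjusted p = 0.242) without PBS replicate 1. It passed without PBS replicate 2 (-0.51, adjusted p = 0.0307), without PBS replicate 3 (-0.58, adjusted p = 0.0336) and in limma-voom with sample weights (-0.75, adjusted p = 0.00013). Its exons share 511 bases (14.1%) with the opposite-strand gene AC119228.1, which had 4 to 31 counts, and the counting used no strand.

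Cd276 encodes B7-H3, a B7 protein common on solid tumours. It lies on the minus strand at chr9:58431581-58462720. Its level was 88.6, 82.2 and 90.7 CPM in PBS, 52.6, 59.7 and 57.9 CPM in MRC, and 54.9, 50.1 and 47.4 CPM in MRC+L. PBS lay above the rest, which overlapped with each other. Cd276 fell 1.54-fold in MRC (log2 -0.62 ± 0.101, adjusted p = 0.00102) and 1.72-fold in MRC+L (log2 -0.78 ± 0.101, adjusted p = 0.000203). It shares 416 exon bases (11.4%) with the opposite-strand gene Gm10657, which had 0 to 4 counts.

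Cd47 encodes the signal that keeps macrophages from engulfing a cell, through SIRPα. It lies on the plus strand at chr16:49620896-49735373. Its level was 285, 275 and 328 CPM in PBS, 175, 164 and 190.5 CPM in MRC, and 180.3, 169 and 164 CPM in MRC+L. Again PBS was highest with no overlap, and the MRC and MRC+L libraries were interleaved. Cd47 fell 1.68-fold in MRC (log2 -0.75 ± 0.109, adjusted p = 0.000528) and 1.73-fold in MRC+L (log2 -0.79 ± 0.109, adjusted p = 0.000296).

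The 3 NKG2D ligand genes among the 10 did not move together. Other NKG2D ligand genes, H60a, Raet1a, Raet1b and Raet1c, were not matched in the count tables. Their levels, and whether their reads fell on H60b or Raet1e, are not known. H60b lies on the plus strand at chr10:22034485-22164748 and encodes an NKG2D ligand of the H60 family. It had 120, 18 and 158 counts in PBS, 245, 297 and 324 in MRC, and 354, 344 and 315 in MRC+L. As levels these are 6.27, 1.06 and 9.83 CPM, then 15.5, 17.3 and 16.1 CPM, then 19.1, 23.03 and 18.6 CPM. The groups did not overlap, and PBS replicate 2 was 2.93 below the mean of the other PBS libraries on the log2 scale. H60b rose 2.85-fold in MRC (log2 1.51 ± 0.498, adjusted p = 0.0365) and 3.55-fold in MRC+L (log2 1.83 ± 0.499, adjusted p = 0.0135). Without PBS replicate 2 the changes were smaller and their errors narrower, at 1.02 ± 0.169 (adjusted p = 3.72e-05) and 1.34 ± 0.168 (adjusted p = 9.60e-07). The MRC call was lost in 9 of 16 other settings, with adjusted p up to 0.0934, among them the fit with replicate number as a block (1.63, adjusted p = 0.0519), while the MRC+L call held in all 16.

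Raet1e encodes RAE-1ε, and its annotated span, chr10:22034468-22250038 on the plus strand, encloses that of H60b. Its counts were 75, 75 and 54 in PBS, 24, 35 and 39 in MRC, and 33, 23 and 26 in MRC+L. These are 3.92, 4.41 and 3.36 CPM, then 1.52, 2.04 and 1.93 CPM, then 1.78, 1.54 and 1.54 CPM. All PBS libraries were above all others. Raet1e fell 2.12-fold in MRC (log2 -1.08 ± 0.228, adjusted p = 0.00432) and 2.40-fold in MRC+L (log2 -1.26 ± 0.231, adjusted p = 0.00163). RAE-1 genes are near-identical copies that differ between mouse strains, and Raet1e shares 363 exon bases (16.8%) with Raet1d and 133 (6.16%) with H60b. Reads in shared bases or with several alignments were not counted, so the values of these genes are uncertain. PBS replicate 2, low for H60b, was not low for Raet1e.

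Ulbp1 encodes MULT1, a high-affinity NKG2D ligand, and lies on the minus strand at chr10:7390362-7423638. Its level was 115, 65.2 and 144 CPM in PBS, 123, 129 and 120.1 CPM in MRC, and 131, 122 and 108 CPM in MRC+L. PBS enclosed both other groups. The change was not called in MRC (log2 0.20, 95% interval -0.31 to 0.71, adjusted p = 0.528) or in MRC+L (log2 0.16, interval -0.36 to 0.67, adjusted p = 0.597). PBS replicate 2 was again the low library, 0.99 below the other PBS libraries on the log2 scale. Without it the estimates changed sign, to -0.070 (adjusted p = 0.592) and -0.11 (adjusted p = 0.390).

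Nt5e encodes CD73, the surface enzyme that makes adenosine from AMP and so dampens T and NK cells. It lies on the plus strand at chr9:88209250-88254145. Its level was 28.4, 22.5 and 31.9 CPM in PBS, 43.4, 39.0 and 41.1 CPM in MRC, and 35.1, 35.5 and 33.5 CPM in MRC+L. MRC was highest, MRC+L intermediate and PBS lowest, with no overlap among the 3. Nt5e rose 1.49-fold in MRC (log2 0.58 ± 0.132, adjusted p = 0.00688). In MRC+L the log2 change of 0.33 ± 0.132 missed the threshold (adjusted p = 0.0646), as it did in 13 of 16 other settings, down to 0.16 (adjusted p = 0.155) with the length trend removed. It passed without PBS replicate 3 (0.44, adjusted p = 0.0157), in DESeq2 (0.34, adjusted p = 0.0409) and in limma-voom (0.28, adjusted p = 0.00092).

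**Figure D2:**
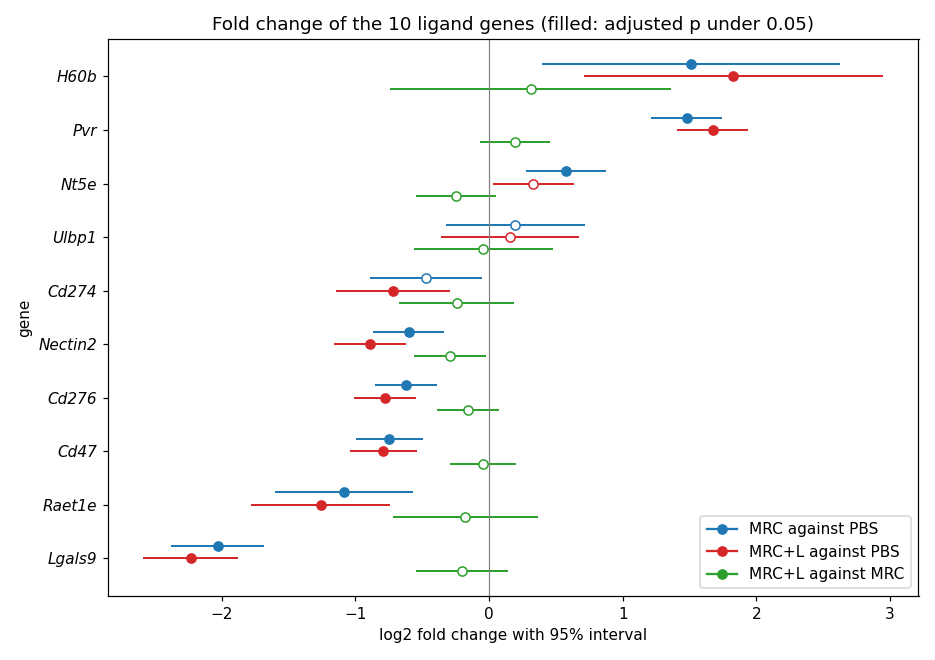
Log2 fold changes of the 10 ligand genes (horizontal axis) with 95% intervals for the 3 comparisons, filled where the edgeR adjusted p is under 0.05. Pvr and H60b lie to the right and Lgals9 farthest to the left in both comparisons with PBS, and no point is filled for MRC+L against MRC.

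With light added to the nanoparticles, no ligand gene was called: edgeR called 0 of 10 in MRC+L against MRC, and 0 of all 13439 genes (0% in either direction). At an unadjusted p under 0.05 there were 1 ligand gene, Nectin2, and 573 of all genes (4.26%). DESeq2 and limma-voom each called 0 of the 10. The Nectin2 difference was -0.29 ± 0.117 on the log2 scale (95% interval -0.55 to -0.030, unadjusted p = 0.0323, adjusted p = 0.988). A fit to the 6 MRC and MRC+L libraries alone, without the wide spread of PBS, called 5.05% of 12955 genes, 3.13% higher and 1.91% lower. Nectin2 was the 1 ligand gene among them (log2 -0.29 ± 0.0820, adjusted p = 0.0428), lower in 3 of 3 MRC+L libraries. Nt5e (-0.24, adjusted p = 0.0857), Pvr (0.20, adjusted p = 0.104) and H60b (0.31, adjusted p = 0.106) did not pass there. Libraries of the 2 groups did not overlap for 4 genes, H60b higher and Nectin2, Lgals9 and Nt5e lower in MRC+L, against 24.4% of all genes (11.8% higher, 12.6% lower).

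In the 9-library fit, the 95% intervals of MRC+L against MRC were narrow for Cd47 (-0.29 to 0.20) and Pvr (-0.056 to 0.45). They were wide for H60b (-0.73 to 1.36) and Raet1e (-0.71 to 0.36), so a difference of 2-fold upward in H60b lies inside its interval there. The fit to the MRC and MRC+L libraries alone, where H60b was not called, gave it an unadjusted 95% interval of 0.082 to 0.55. A 2-fold rise lies outside that interval. For Raet1e the interval of the same fit was wider than in the 9-library fit, at -0.82 to 0.47. The median log2 difference of the 10 genes in the 9-library fit was -0.17, beside -0.0090 for all genes.

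Levels of different genes were set side by side as CPM per kilobase of exon. In PBS the order was led by Lgals9 (137 ± 26.4) and Cd47 (47.2 ± 4.48), which did not overlap. Cd276 (23.8), Pvr (22.1), Nectin2 (21.3) and Ulbp1 (16.1) followed, each overlapping its neighbour. H60b (4.72), Nt5e (3.21) and Cd274 (2.41) came next, also overlapping in turn, and Raet1e (1.80) was last. In MRC the order began with Pvr (61.6 ± 6.75), then Lgals9 (33.6), Cd47 (28.1) and Ulbp1 (18.5), with no overlap between neighbours. Cd276 (15.5), Nectin2 (14.0) and H60b (13.4) overlapped, and Nt5e (4.78), Cd274 (1.74) and Raet1e (0.848) were apart. In MRC+L Pvr (70.5 ± 3.38) was again first, Lgals9 (29.3) and Cd47 (27.3) overlapped, and so did Ulbp1 (17.9) and H60b (16.7). Cd276 (13.9), Nectin2 (11.5), Nt5e (4.04), Cd274 (1.47) and Raet1e (0.750) completed it without overlap. Cd274 and Raet1e held the last 2 places in all 3 groups.

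**Figure D3:**
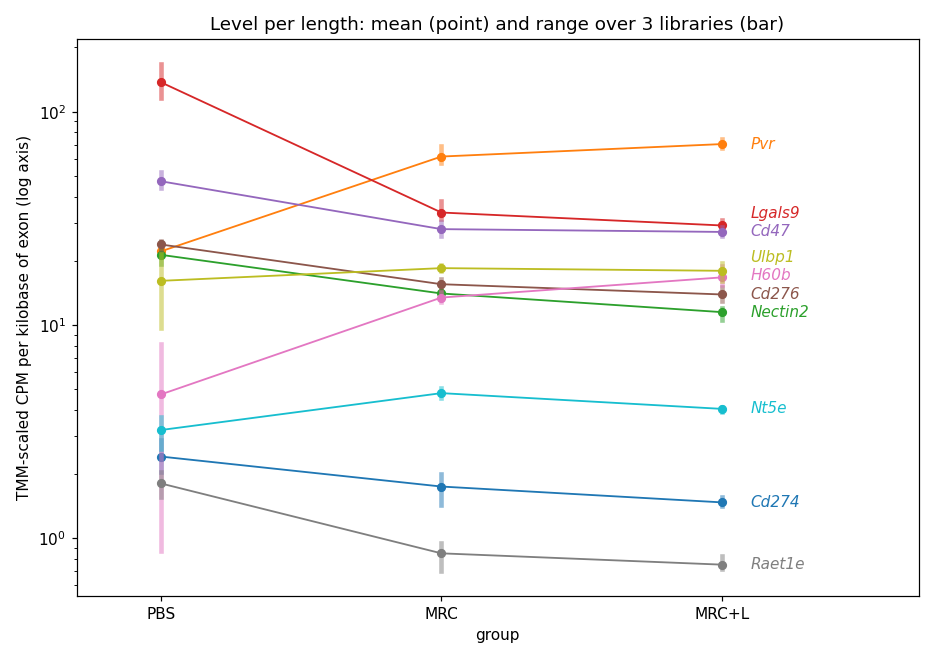
Mean level per kilobase of exon (points, log vertical axis) and range over 3 libraries (bars) of the 10 ligand genes in PBS, MRC and MRC+L. Pvr moves to first place, from 22.1 in PBS to 61.6 in MRC, and Lgals9 leaves the first place that it holds in PBS at 137.

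Among 74 other genes of the same families and pathways, 70 were in the tables and 45 were tested. In MRC 9 were called higher and 16 lower than in PBS, and in MRC+L 9 higher and 19 lower, with medians of -0.23 and -0.24. Of all genes tested 37.6% were called in MRC (17.8% higher, 19.8% lower) and 46.2% in MRC+L (21.8% higher, 24.5% lower), and the count of each list below stands beside these shares. The genes named are those with the highest level in each list, with some exceptions. Pdcd1lg2, Cd80, Cd86 and Entpd1, all near absent, and Irf1, Irf2, Ifngr1 and Ifngr2 were named outside this rule. In MRC+L against MRC edgeR called 0 of the 45, with 3 at an unadjusted p under 0.05. The 6-library fit called 1, Lgals1 (-0.29 ± 0.0656, adjusted p = 0.0129).

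Of 6 tested B7 and TNF family ligands, 1 was higher and 2 were lower in MRC, and 2 were higher and 2 lower in MRC+L, beside 37.6% and 46.2% of all genes called. With so few genes, these counts say nothing particular of the list. Vsir, which encodes the checkpoint protein VISTA, went from 16.1 ± 1.301 CPM in PBS to 2.81 ± 0.861 in MRC and 2.50 ± 0.361 in MRC+L. Those are falls of 5.69-fold (adjusted p = 2.79e-05) and 6.40-fold (adjusted p = 1.51e-05). Tnfsf9, the ligand of the costimulatory receptor 4-1BB, fell to a mean of 14.3 CPM in MRC and 14.5 in MRC+L from 22.6 in PBS (adjusted p = 0.0150 and 0.0147). Tnfsf18, the ligand of GITR, had 0, 3 and 1 counts in PBS, 45, 15 and 27 in MRC and 40, 46 and 47 in MRC+L, and was called higher in both. Tnfsf4, the OX40 ligand, rose in MRC+L (log2 1.43, adjusted p = 0.0164) from 7 to 10 counts per PBS library to 19 to 23, and in MRC it had 6 to 17 (adjusted p = 0.494). Icosl and Tnfrsf14 were not called. The classical T cell ligands were near absent, with 0 or 1 counts of Pdcd1lg2 (PD-L2), 0 to 6 of Cd80 and 0 to 2 of Cd86 per library.

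Other nectins were tested beside Pvr and Nectin2. Nectin1, a cell adhesion protein, fell from 30.7 ± 3.30 CPM in PBS to 20.2 ± 1.08 in MRC and 17.65 ± 0.500 in MRC+L (adjusted p = 0.00258 and 0.000405). Nectin3 was not called, with log2 changes of -0.072 and -0.068 (adjusted p = 0.671 and 0.666). Cadm4 was called lower in MRC+L alone (-0.59, adjusted p = 0.0471), and in MRC its change was -0.40 (adjusted p = 0.17). Cadm1 had 0 to 12 counts and Nectin4 0 to 10, and neither was tested.

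Among 6 other tested NK cell ligands, 0 were higher and 3 lower in MRC, and 0 were higher and 4 lower in MRC+L. H2-T23 encodes Qa-1, which presents peptides to the inhibitory receptor NKG2A. It had 184, 300.7 and 159.6 CPM in PBS against 65.5 to 83.9 CPM in all 6 libraries with nanoparticles, and fell 2.99-fold in MRC (adjusted p = 0.000386) and 2.80-fold in MRC+L (adjusted p = 0.000428). Clec2d, the ligand of the inhibitory receptor NKR-P1B, fell 4.04-fold (adjusted p = 0.000425) and 5.54-fold (adjusted p = 0.000119). Icam1, the adhesion ligand of LFA-1, fell 3.54-fold (adjusted p = 0.000126) and 3.52-fold (adjusted p = 9.58e-05). Raet1d was lower in MRC+L (-1.300, adjusted p = 0.0298), and its MRC change of -0.94 missed the threshold (adjusted p = 0.0974). It had 6 to 41 counts per library and shares exon bases with Raet1e, so its values are uncertain too. Bag6 and Cd1d1 were not called.

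In the adenosine list, 2 of 5 tested genes were higher in MRC and 2 higher and 1 lower in MRC+L. The share of 40% in MRC is near the 37.6% of all genes and is not a result about the list. Slc29a2, a nucleoside transporter, rose from 17.1 ± 1.87 CPM to 27.3 ± 3.65 in MRC and 25.9 ± 1.87 in MRC+L (adjusted p = 0.00357 and 0.00561). Its relative Slc29a1 was lower in MRC+L (-0.32, adjusted p = 0.0457). Adora2a, an adenosine receptor, was called higher from 0 to 3 counts in PBS to 4 to 11 in MRC and 6 to 15 in MRC+L. Entpd1, which encodes CD39, the enzyme upstream of CD73, had 0 to 2 counts. Adk and Ada were not called, and Adora2b, with 0 to 13 counts, was not tested.

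Of 6 tested phagocytosis genes, 2 were higher and 3 lower in MRC, and 1 was higher and 2 lower in MRC+L. Calr, whose product calreticulin is an engulfment signal at the surface of dying cells, rose 1.57-fold (adjusted p = 0.00698) and 1.47-fold (adjusted p = 0.0124). Lrp1, which encodes the calreticulin receptor, fell 2.84-fold (adjusted p = 0.00245) and 3.01-fold (adjusted p = 0.00148). Sirpa, the receptor gene for CD47, fell 2.40-fold (adjusted p = 0.000362) and 2.23-fold (adjusted p = 0.000472). Thbs1 fell (-1.10, adjusted p = 0.0116) and Cd24a rose (0.42, adjusted p = 0.0362) in MRC. Neither was called in MRC+L, and Qpctl, the gene of an enzyme that modifies CD47, was called in neither.

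Galectins other than galectin-9 moved in both directions. Lgals3 rose 1.75-fold in each comparison (adjusted p = 0.00557 and 0.00442), and Lgals8 rose 1.55-fold and 1.41-fold (adjusted p = 0.000635 and 0.00202). Lgals3bp, the gene of a secreted galectin-3 ligand, fell from 476 ± 34.1 CPM to 111 ± 12.2 in MRC and 96.5 ± 14.97 in MRC+L (adjusted p = 5.74e-06 and 2.58e-06). Lgals1 was lower in MRC+L (-0.86, adjusted p = 0.0125) and missed the threshold in MRC (-0.56, adjusted p = 0.0779). Lgals7 and Lgals4 were not called.

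PD-L1 is induced by interferon through the kinases JAK1 and JAK2 and the factor IRF1, and is held at the surface by CMTM6 and CMTM4. Of the 10 genes of that list, 1 was higher and 6 lower in each comparison with PBS. Jak2 fell from 199 ± 34.3 CPM to 59.1 ± 2.02 and 61.4 ± 3.45 (adjusted p = 1.00e-05 and 8.39e-06). Irf1, Irf2, Ifngr1 and Ifngr2 also fell in both and were named after their values were seen, with log2 changes from -1.52 to -0.33. Stat3 rose in both (0.56 and 0.42, adjusted p = 0.0127 and 0.0372). Jak1, Cmtm4 and Cmtm6 were not called. Of 3 genes that act in the shedding of NKG2D ligands, Pdia6 rose (0.59 and 0.60, adjusted p = 0.0151 and 0.0113), and Adam10 and Adam17 were not called.

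**Figure D4:**
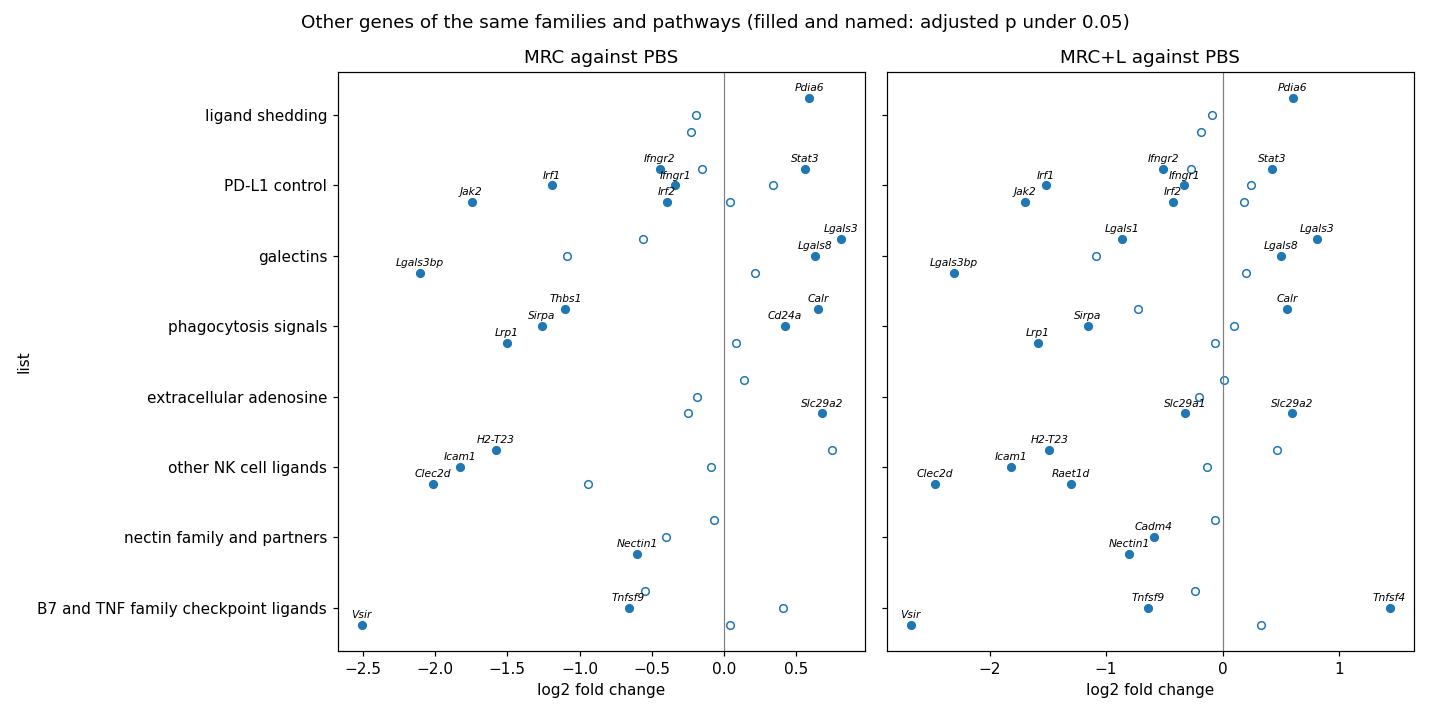
Log2 fold changes (horizontal axes) of tested genes of the ligand families and pathways, 1 row of points per list (not every list member is drawn), in MRC and MRC+L against PBS; filled and named points have an edgeR adjusted p under 0.05. Tnfsf18 and Adora2a are left out for their 0 to 3 counts per PBS library, and Vsir and Lgals3bp lie farthest to the left in their lists.

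As a description over the 9 libraries, which share the split between PBS and nanoparticles, the protein-coding genes most like 3 of the ligands were listed by Pearson r of log2 CPM among 11629 genes. For Pvr they were Ptgs2 (r = 0.998), Cdv3 (r = 0.997) and Mitf (r = 0.997). Ptgs2, the gene of cyclooxygenase-2, rose 11.1-fold in MRC and 12.7-fold in MRC+L (adjusted p = 2.25e-06 and 1.27e-06). For Lgals9 they included Slfn2 (r = 0.998) and Phf11d (r = 0.998). Slfn2 fell 11.4-fold and 15.9-fold, and Phf11d fell 7.31-fold and 9.63-fold (adjusted p of 1.23e-05 or lower in each). Ptgs2, Slfn2 and Phf11d were picked for likeness to called genes in the same libraries, so their adjusted p-values are not separate evidence. For Cd274 likeness was looser, with Tcf7 (r = 0.970), Ppp2r5d (r = 0.969) and Psat1 (r = 0.962).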

How the data were processed

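The 9 libraries, 3 per group, came from total RNA (Trizol, then a TruSeq kit; per the labels). What the authors deposited is a raw count per gene and library. Per the file headers, featureCounts 2.0.1 counted read pairs over exons against GRCm39 and Ensembl release 104, without strand and without reads that match several genes or places. The aligner is not given in the sources used here. Symbols were matched by gene ID to GENCODE M21 (52083 of 55416 IDs, 94.0%). Genes were filtered with edgeR 4.0.16 in R 4.3.3 (minimum count 10, minimum total 15) and fitted with TMM factors in the quasi-likelihood test on all 9 libraries, 1 mean per group, with Benjamini-Hochberg adjustment over all 13439 genes and a threshold of 0.05. Fold changes used a prior count of 0.125, likeness a prior count of 2. Promoter windows were 250 bases before to 50 after the start. Alternatives were RLE factors, DESeq2 1.42.0, no filter, a replicate block, limma 3.58.1 voom with sample weights, removal of a length trend, the 6 libraries compared, and leaving out each library. The fit was also run on simulated counts that had the same spread per gene in every group. The wider spread of PBS was not simulated, so that run does not check its effect. Plots used Python 3.11.15 and matplotlib 3.10.9. The 10 genes, the lists and the 3 genes given a search for likeness were chosen with earlier results of these data known. Genes of each list were named by mean level over all libraries, up to 6 per list, apart from the exceptions given above. A gene that this rule names is not reported here.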

Additional observations from a re-analysis of the deposited data

How the results depend on the processing

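Over the 3 comparisons of the 10 genes, 16 other settings gave values of which 460 kept the direction and the side of the threshold, 9 lost the call (all of them H60b in MRC against PBS), 7 gained one and 4 changed sign. The sign changes were Ulbp1 without PBS replicate 2 (-0.070 in MRC and -0.11 in MRC+L, beside up to 0.46 and 0.42 without PBS replicate 3), Cd47 in MRC+L against MRC without MRC replicate 3 (0.018, and down to -0.093 without MRC replicate 2) and Ulbp1 in the same comparison without MRC+L replicate 3 (0.033). All 4 were differences that were not called. With limma-voom 8851 of all genes were called in MRC against PBS (5050 in edgeR) and 9856 in MRC+L against PBS (6212). In MRC+L against MRC, where edgeR called 0, DESeq2 called 23 of all genes, the unfiltered fit 15, limma-voom 262, the fit with the length trend removed 4, and the 6 libraries alone 654, with 1 ligand gene and 1 pathway gene. Leaving out 1 library at a time gave 7 to 9, 8 to 9 and 0 ligand genes in the 3 comparisons, 18 to 29, 20 to 31 and 0 pathway genes, and 3562 to 6962, 4702 to 7659 and 0 to 89 of all genes. The 89 came without PBS replicate 2, where 2 without PBS replicate 1 and 1 without PBS replicate 3 were called. The cause of these changes was not tested. Same-numbered libraries correlated at -0.185 to 0.038 in their deviations from the group means, beside -0.126 to 0.204 for differently numbered ones. Libraries did not all correlate best with their own number. Pairing by replicate number was thus not seen, but deviations among 3 libraries per group cannot exclude it. With the replicate block 7, 8 and 0 ligand genes, 4283, 5490 and 0 of all genes, and 20, 24 and 0 pathway genes were called. No scaling moved the median of all genes by over 0.1. The lowest counts behind a ligand gene were 77 to 199 per library for Cd274, 18 to 354 for H60b and 23 to 75 for Raet1e.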

Other observations

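Receptor genes for these ligands, Tigit and Havcr2, had counts in every library while Cd3e and Ptprc were near absent. Both were singled out after their values were seen. Tigit, the receptor gene for Pvr and Nectin2, had 476 to 779 counts per library, with mean levels of 37.8 ± 1.36 CPM in PBS, 40.0 ± 2.99 in MRC and 31.5 ± 1.64 in MRC+L (SD, n = 3). It was not called against PBS (edgeR adjusted p = 0.578 in MRC and 0.0549 in MRC+L). Havcr2, which encodes TIM-3, a receptor of galectin-9, had 95 to 181 counts and was not called either (adjusted p = 0.0694 in MRC and 0.678 in MRC+L). In MRC+L against MRC edgeR called neither gene (adjusted p = 0.988 for each). Libraries of those groups did not overlap for either gene, as for 24.4% of all genes. Tigit was lower (log2 -0.34, unadjusted p = 0.00707) and Havcr2 higher (log2 0.50, unadjusted p = 0.0116) in MRC+L. Klrk1, the gene of NKG2D, had 0 to 2 counts per library. Neither Tigit nor Havcr2 overlaps another annotated gene in the deposited tables.

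PBS replicate 2, low for H60b with 18 counts, was also low for C920009B18Rik, a noncoding gene within the annotated span of Raet1e, with 51 counts beside 251 and 357 in the other PBS libraries. C920009B18Rik was singled out after its values were seen. Among other genes that overlap that span, Gm26581 was low there too, with 10 counts beside 50 and 45. Gm1972, with 18 beside 15 and 10, and Raet1d, with 41 beside 36 and 36, were not low.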
